A study of Mus musculus with 3 samples.

Results

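The NR4A receptors, the EGR factors and the NAB co-repressors make up 9 of the 50600 genes annotated in these data. They were taken by name: Nr4a1, Nr4a2 and Nr4a3; Egr1, Egr2, Egr3 and Egr4; Nab1 and Nab2. Each was found by its Ensembl identifier in the deposited counts and its GENCODE symbol. Levels are given as TPM, the fragments of a gene divided by its exon length and scaled to the same total in each library. RNA of mouse regulatory T cells (Treg), a CD4 lineage that requires Foxp3 and holds immune responses in check, was sequenced in 3 libraries. All were primary cells of strain C57BL/6NJ, carried the numbers 2, 3 and 4 as biological replicates and shared a donor identifier; no allele or transgene is named. Their age is given as unknown and sex was not recorded. Per the file headers the cells had been activated for 16 hours, and the linked protocol is named for differentiation of CD4 T cells, so the libraries do not stand for resting cells, and no resting or second group was analysed here.

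NR4A1 (Nur77), NR4A2 (Nurr1) and NR4A3 (Nor1) are orphan nuclear receptors with a closed ligand pocket, whose activity is thought to depend in large part on their amount. Transcript levels do not measure that activity. Like the genes of the EGR zinc finger factors, the NR4A genes are early response genes of the T cell receptor, NR4A through calcium and MEF2 or CREB, EGR through ERK and serum response factor. In Treg the NR4A receptors maintain Foxp3, EGR2 and EGR3 restrain T cell activation, and NAB1 and NAB2 bind EGR proteins and repress their targets.

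The 3 libraries held 41222058, 47665060 and 99097524 assigned fragments in replicates 2, 3 and 4. All 6 Treg markers and all 7 T cell markers in the lists used reached 1 TPM in every library. None of 10 myeloid markers did: they summed to 0.396, 0.245 and 0.175 TPM, and 5 of them had no fragment. Of 8 markers of CD8 T or natural killer cells only Cd8b1 reached 1 TPM in every library, at 28.2, 28.6 and 23.9 TPM. Of 6 B cell markers only Igkc did, while Cd79a did so in 2 of the 3 libraries. Epcam was the only one of 6 stroma or epithelium markers to reach 1 TPM in every library, at 1.89, 2.12 and 1.56 TPM. The sex-linked genes set the libraries apart. Xist had 27625, 85 and 18895 fragments and Y-linked Ddx3y 8, 2932 and 4314 in replicates 2, 3 and 4, although the donor identifier is shared. Replicate 2 alone was low in Y-linked RNA, replicate 3 alone was low in Xist, and replicate 4 held both. The libraries thus differed in the sex of their cells and are not all of 1 animal. A difference between libraries cannot be told apart from one of sex. Whether each library is a separate animal is not stated, so an SD or p-value here covers the spread of these libraries and no more, part of which may be technical. Each result was also computed without each library.

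The coding sequences show where the NR4A genes resemble each other. The lines below are aligned stretches of 90 bases from the GENCODE M21 transcripts, read 5′ to 3′ in the coding strand, from the part that encodes the DNA-binding zinc fingers. Capitals mark the positions that are not the same in all 3 genes. The stretches begin at coding base 859 of Nr4a1, 838 of Nr4a2 and 928 of Nr4a3.
Nr4a1: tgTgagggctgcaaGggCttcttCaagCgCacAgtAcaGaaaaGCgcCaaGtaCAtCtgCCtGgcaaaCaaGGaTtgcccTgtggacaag
Nr4a2: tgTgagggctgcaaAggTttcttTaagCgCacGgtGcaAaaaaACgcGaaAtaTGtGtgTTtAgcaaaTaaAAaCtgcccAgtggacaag
Nr4a3: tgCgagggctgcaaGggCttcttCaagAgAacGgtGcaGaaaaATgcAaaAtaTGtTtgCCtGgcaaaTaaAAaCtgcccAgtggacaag
Of the 90 positions 66 (73.3%) were the same in all 3 genes. The longest exact run shared by whole transcripts was 27 bases for Nr4a2 and Nr4a3, 24 for Nr4a1 and Nr4a3 and 14 for Nr4a1 and Nr4a2. Nab1 and Nab2 shared 46 bases, a run that did not lie wholly within the coding sequences of both genes. A read lying wholly within such a run could not be given to 1 gene.

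The sequence before the start of transcription is shown for the 3 receptors and Egr2, because the same short motif recurs in it. RefSeq promoter entries (GRCm38.p6) matched 7 of the 9 genes, and the 250 bases before each start were searched on both strands. The motifs were TGACG, the core of the cAMP response element bound by CREB; the full element TGACGTCA, which contains the core; GCGNGGGCG, the EGR site; AAAGGTCA, the NBRE bound by NR4A receptors; and the CArG box bound by serum response factor. The search for the core was added after the sequences had been seen. Each line is 5′ to 3′ on the gene's strand, without bases that lie in any annotated exon. Capitals mark matches on either strand. Egr2 has several RefSeq starts, of which 3 overlapping ones share the most matches, and the one with the longest line is shown. The windows are Nr4a1 at chr15:101266596-101266845 (plus strand), Nr4a2 at chr2:57124004-57124253 (minus), Nr4a3 at chr4:48045055-48045152 (plus) and Egr2 at chr10:67537619-67537868 (plus).
Nr4a1: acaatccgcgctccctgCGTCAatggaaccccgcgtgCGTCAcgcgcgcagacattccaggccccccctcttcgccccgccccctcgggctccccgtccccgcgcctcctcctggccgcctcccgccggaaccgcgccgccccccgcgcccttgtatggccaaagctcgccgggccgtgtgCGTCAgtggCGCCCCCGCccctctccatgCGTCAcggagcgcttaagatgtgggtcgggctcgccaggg
Nr4a2: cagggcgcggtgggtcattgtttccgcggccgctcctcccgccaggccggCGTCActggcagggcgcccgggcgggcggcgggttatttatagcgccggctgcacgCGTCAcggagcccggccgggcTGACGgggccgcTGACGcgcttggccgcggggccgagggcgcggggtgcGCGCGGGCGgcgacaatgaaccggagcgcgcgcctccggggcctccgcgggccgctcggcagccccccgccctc
Nr4a3: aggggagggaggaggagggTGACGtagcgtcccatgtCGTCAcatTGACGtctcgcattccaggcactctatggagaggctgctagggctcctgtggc
Egr2: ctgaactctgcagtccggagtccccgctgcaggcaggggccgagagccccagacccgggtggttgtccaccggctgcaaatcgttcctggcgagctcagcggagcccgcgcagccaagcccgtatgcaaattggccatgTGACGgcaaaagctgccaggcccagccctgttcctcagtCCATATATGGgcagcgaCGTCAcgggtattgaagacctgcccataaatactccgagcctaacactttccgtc
The core occurred at 4 places in the full window of each NR4A gene, of which the Nr4a3 line shows 3, the other lying in an annotated exon. Over all 32851 RefSeq promoters the same window held the core at 1 or more places in 17.8% and at 4 or more in 0.137%. The core contains a CpG, and these windows are rich in G and C (74.4% for Nr4a1, 80% for Nr4a2 and 63.6% for Nr4a3), for which the share over all promoters makes no allowance. An EGR site, found in 4.70% of promoters, occurred once before Nr4a1 and once before Nr4a2. The Egr2 window shown had 2 cores and a CArG box, which reads the same on both strands and was found in 1.47% of promoters. That share makes no allowance for the choice of the Egr2 start with the most matches. The window before the start at chr10:67535499, near the 5′ end of the gene model, had no match. The window before chr10:67537566 had a CArG box and no core. Egr4 had 2 cores (2 or more in 3.902% of promoters), and Nab1 had 3 EGR sites (3 or more in 0.140%) and 1 core in bases that are annotated as exon. The Nab2 window had no match, but its RefSeq start (chr10:127666703) lies inside the gene model and the window begins in annotated exon. No window held the full element or the NBRE, which occurred in 1.55% and 1.34% of promoters. No 2 matches of different motifs overlapped. A match describes these letters and is not a measured binding site. Any link between the motifs and the transcript levels was not tested.

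**Figure D1:**
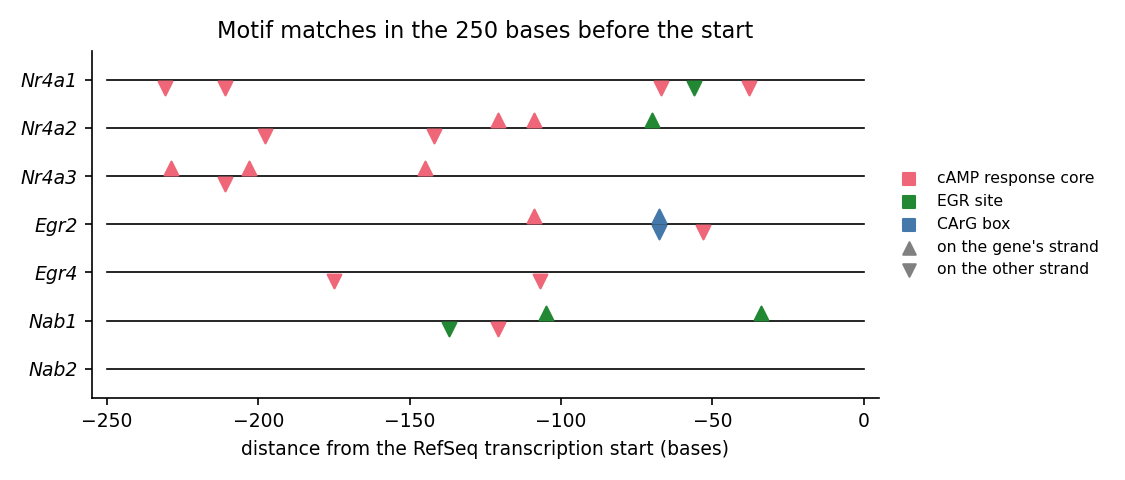
Places of motif matches in the 250 bases before the RefSeq start of the 7 genes with an entry; the horizontal axis is the distance from the start in bases, triangles point up for the gene's strand and down for the other strand, and colours give the motif. Each NR4A gene has 4 cAMP response cores, and Nab1 has 3 EGR sites. Egr2, which has several starts, is drawn at the start whose line is shown in the text.

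Of the NR4A receptors, Nr4a1 and Nr4a3 were among the abundant transcripts of these cells and Nr4a2 was low. Nr4a1 (Nur77, chr15:101266846-101274792, plus strand, mm10) measured 316, 373 and 361 TPM in replicates 2, 3 and 4, from 9536, 13222 and 26101 fragments. Its mean of 349.9 TPM ± 30.1 (SD, n = 3) gave it rank 457 of 21764 protein-coding genes. Replicate 2 was the low library for this gene, and its 3 values did not overlap those of Nr4a3 or Nr4a2. Nr4a3 (Nor1, chr4:48045153-48086447, plus strand) measured 234, 212 and 225 TPM, here with replicate 2 the highest. Its mean was 223 ± 11.1 TPM (SD, n = 3), rank 818. Nr4a2 (Nurr1, chr2:57106830-57124003, minus strand), the receptor best known from dopamine neurons, measured 4.30, 4.47 and 4.41 TPM, from 213, 260 and 523 fragments. Its mean was 4.39 ± 0.0858 TPM (SD, n = 3). The 3 libraries agreed closely on this low level, which stands at rank 8896 and above the 1 TPM used here to call a gene detected. In bulk RNA, a level that few cells hold and a low level in all cells cannot be told apart.

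The summed NR4A level was 577.7 ± 20.7 TPM (SD, n = 3), with 553.9, 589.0 and 590.2 TPM in replicates 2, 3 and 4. Nr4a1 made up 57.0%, 63.3% and 61.2% of it and Nr4a3 42.2%, 35.9% and 38.1%. Nr4a2 added 0.761% ± 0.0148 (SD, n = 3). Nr4a1 was 79.6 ± 5.37 times as high as Nr4a2 and Nr4a3 was 50.9 ± 3.50 times as high. Between the 2 abundant receptors the log2 ratio of TPM + 1 was 0.64 ± 0.19 in favour of Nr4a1 (SD, n = 3; 0.43, 0.81 and 0.68). That order rests on the gene lengths. Nr4a3 had more fragments in every library (17080, 18168 and 39343), over 5987 bases of exon against 2474 for Nr4a1. With CPM, fragments scaled for the library total alone, the log2 difference was -0.63, and with coding lengths (1803 and 1881 bases) it was -0.57. With coding lengths Nr4a1 made up 39.96% of the NR4A sum and Nr4a3 59.2%. There the same fragments of all exons, untranslated parts included, were divided by coding bases alone. These values thus follow from the lengths and are not a separate measurement of coding fragments. The deposited Nr4a1 model covers 70.5% of the exon bases that the later GENCODE release M21 gives this gene.

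**Figure D2:**
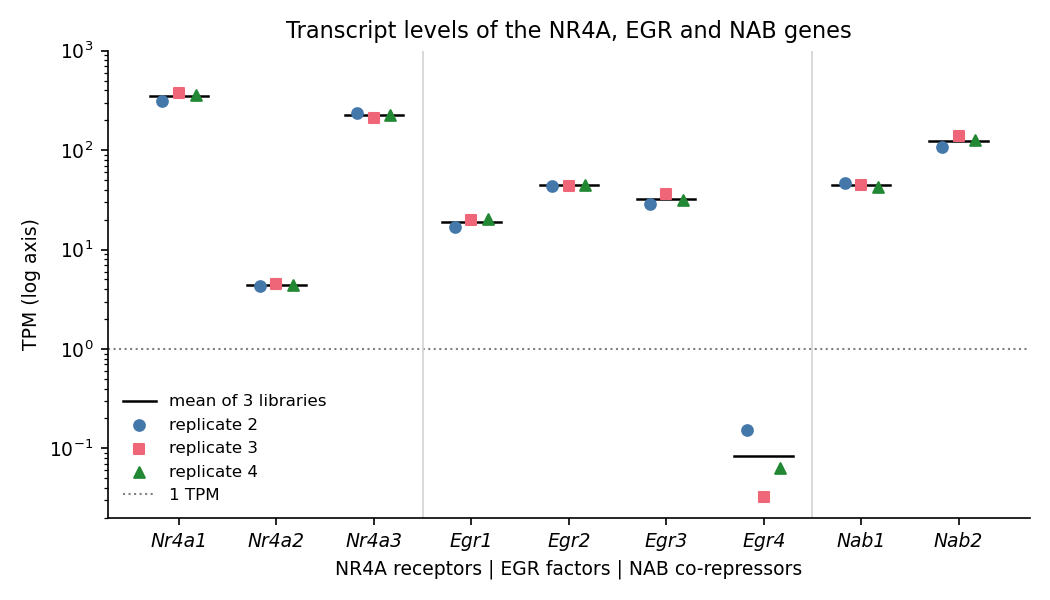
TPM on a log axis for each gene, with 1 point for each library and a black line at the mean of the 3; the dotted line is 1 TPM. Nr4a1 and Nr4a3 lie above 200 TPM in every library, Nr4a2 near 4 TPM, and Egr4 below 1 TPM.

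Of the EGR factors, Egr2, Egr3 and Egr1 were each between 16.7 and 44.8 TPM and Egr4 was near 0. Egr2 (Krox20, chr10:67535475-67542188, plus strand), a factor that limits T cell activation, measured 43.9, 43.8 and 44.8 TPM in replicates 2, 3 and 4, a mean of 44.2 ± 0.577 (SD, n = 3). It was the steadiest of the 9 genes, with a coefficient of variation of 1.31%. The median was 6.09% among the 7568 protein-coding genes with 10 TPM or more in every library (quartiles 3.86% and 8.81%). Egr3 (chr14:70077445-70080157, plus strand), which acts beside Egr2 in T cells, measured 28.9, 36.3 and 31.6 TPM, a mean of 32.3 ± 3.74 (SD, n = 3). Egr1 (Zif268, chr18:34859823-34864984, plus strand), the best known growth factor response gene of the family, measured 16.7, 20.04 and 20.3 TPM, with replicate 2 below the others. Egr1 and Egr3 both varied more than the upper quartile, at 10.6% and 11.6%.

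Egr4 (chr6:85511121-85513589, minus strand) had 4, 1 and 4 fragments, which are 0.153, 0.0325 and 0.0637 TPM. The 9 fragments together give 0.0751 TPM, with an exact Poisson 95% interval of 0.0344 to 0.143 that covers counting error only. It was the only one of the 9 genes below 1 TPM in every library. The 8 detected genes can be read against the 45.6% of protein-coding genes that reached 1 TPM in every library, and the median of the 9, 44.2 TPM, against 0.355 TPM for all protein-coding genes and 32.3 TPM for the detected ones.

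The EGR sum was 95.5 ± 5.37 TPM (SD, n = 3), of which Egr2 made up 46.3%, Egr3 33.7%, Egr1 19.9% and Egr4 0.0895%. The NR4A sum was 6.05 ± 0.155 times the EGR sum (6.18, 5.88 and 6.10). Egr2 exceeded Egr3 by 0.45 ± 0.17 on the log2 scale of TPM + 1 (SD, n = 3), in each of the 3 libraries, and exceeded Egr1 by 2.34 ± 0.2496 times in TPM. Egr3 lay above Egr1 per length of exon, with a log2 difference of Egr1 minus Egr3 of -0.73, but this order also turned with the lengths. Without length the difference was 0.85, and with coding lengths it was 0.43. With coding lengths, again over the fragments of all exons, Egr3 made up 19.7% of the EGR sum, Egr1 26.7% and Egr2 53.5%. The deposited Egr3 model has 1416 exon bases, 32.1% of the 4406 bases in GENCODE M21, so fragments from exon annotated later were not counted.

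The NAB co-repressors were both detected, with Nab2 well above Nab1. Nab2 (chr10:127660918-127668568, minus strand), whose protein binds and restrains EGR factors, measured 106.5, 140.2 and 126.4 TPM in replicates 2, 3 and 4, a mean of 124 ± 16.9 (SD, n = 3). This was the widest relative spread of the 8 detected genes, 13.6%. Nab1 (chr1:52457294-52500679, minus strand), its close relative, measured 46.5, 44.9 and 42.8 TPM, a mean of 44.7 ± 1.88 (SD, n = 3). Nab2 gave 69.6%, 75.8% and 74.7% of the NAB sum of 169 ± 16.03 TPM (SD, n = 3). The NAB sum was 1.77 ± 0.0723 times the EGR sum, so that NAB transcripts outnumbered EGR transcripts per length in every library (1.71, 1.85 and 1.75). Of the 9 genes only Nab2 overlaps exons of other genes, all on the opposite strand: 40 bases of Stat6, 151 of Nemp1 and 1050 of Gm16229. The counting used strand, and Gm16229 had 1, 1 and 2 fragments.

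**Figure D3:**
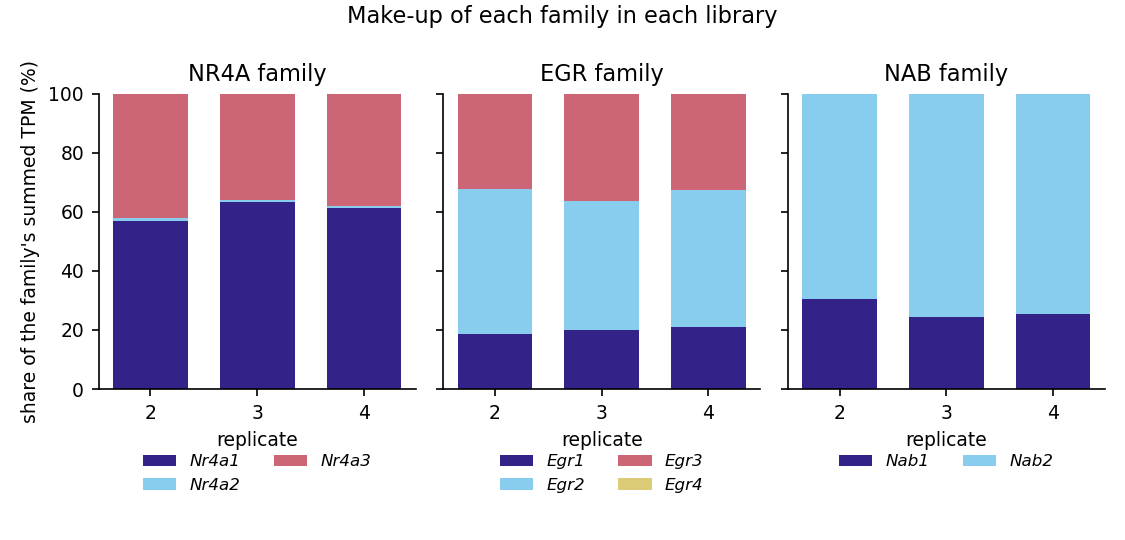
Share of each gene in its family's summed TPM (percent, stacked from 0 to 100) in each of the 3 libraries. With exon lengths Nr4a1 holds 57.0% to 63.3% of the NR4A sum, Egr2 43.7% to 49.0% of the EGR sum and Nab2 69.6% to 75.8% of the NAB sum. With the same fragments over coding lengths, not drawn, Nr4a1 holds a mean of 39.96% and Nr4a3 59.2%. Nr4a2 and Egr4 are barely visible.

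From the highest mean TPM to the lowest, the order was Nr4a1, Nr4a3, Nab2, Nab1, Egr2, Egr3, Egr1, Nr4a2 and Egr4. In TPM Nab1 and Egr2 did not differ beyond their spread: their ranges overlapped, and Nab1 was the higher in 2 of the 3 libraries. No other neighbours in the order overlapped, and each pair kept its order in all 3 libraries on this scale. As given above, Nr4a1 and Nr4a3, and Egr3 and Egr1, changed places in CPM and with coding lengths. In CPM Nab1 (56.5, 55.3 and 51.7 in replicates 2, 3 and 4) lay above Egr2 (44.2, 44.7 and 44.9) in every library. For the 10 pairs within families the exact two-sided sign-flip permutation test gave p = 0.25 each (0.25 after Benjamini-Hochberg adjustment), which is the smallest p that 3 libraries allow, so no pair could pass 0.05. The protein-coding genes nearest in level over the 3 libraries, by the largest absolute log2 difference of TPM + 1 in any library, were Oaz1 (0.040) and Grwd1 (0.048) for Nr4a1. They were Nop14 (0.035) and Ivns1abp (0.056) for Nr4a3, and Metrn (0.092) and Trmt112 (0.098) for Nab2.

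Between the 3 libraries, the NR4A, EGR and NAB genes differed by small ratios. Each gene was tested with a chi-square test of equal rates on its fragments, over 13688 genes with 30 or more fragments in all, with Benjamini-Hochberg adjustment. To be called, a gene needed an adjusted p below 0.05 together with a CPM in its highest library at least 2 times that in its lowest. The test treats each fragment as independent, and it sets libraries of 1 condition against each other. None of the 8 members tested was called, where 11.0% of all genes were; Egr4 had too few fragments. By the adjusted p alone 6 of the 8 passed, where 70.5% of all genes did, so neither share can be read as a property of these genes.

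The widest ratio was that of Nab2, 1.36 (adjusted p = 1.46e-46 by the chi-square test). Egr3 followed with 1.29 (adjusted p = 4.96e-05), Egr1 with 1.24 (adjusted p = 3.25e-07) and Nr4a1 with 1.22 (adjusted p = 1.61e-48). The median ratio of all genes tested was 1.19, so these 4 lay above the median gene. Nr4a3 and Nab1, each with a ratio of 1.07, also passed the adjusted p (3.78e-09 and 0.00408). Nr4a2 and Egr2 did not, with ratios of 1.07 and 1.03 (adjusted p = 0.777 and 0.517). Replicate 2 was the lowest library for 6 of the 8 genes and the highest for the other 2, Nr4a3 and Nab1. Without replicate 2 Egr1 no longer passed (adjusted p = 0.867), without replicate 3 Egr3 did not (0.122), and without replicate 4 Nab1 did not (0.903).

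GC content moved with these differences. Over 11447 genes the log2 difference of replicate 3 minus replicate 2 correlated with the GC content of the transcripts at Pearson's r = 0.36 and Spearman's rho = 0.49, and that of replicate 4 minus replicate 2 at 0.42 and 0.56, across genes that share the same libraries. For replicate 4 minus replicate 3 both were near 0 (0.0021 and -0.0022). From the lowest to the highest of 5 equal bins by GC, the median difference of replicate 3 minus replicate 2 went from -0.16 to 0.17. Nab2 (60.1% GC), Egr1 (57.3%) and Nr4a1 (57.0%) lie in the top bin, and Nr4a3 (48.4%) and Nab1 (47.2%) in the second lowest. Nab2 was higher by 0.44 in replicate 3 than in replicate 2, of which 0.27 was beyond the median of its bin. For Nr4a1 the difference was 0.28 and 0.12 beyond the bin, and for Egr1 0.30 and 0.14. Egr3, in the middle bin with 51.3% GC, differed by 0.36, and by 0.34 beyond its bin. With the libraries centred within these bins, an alternative added after the values had been seen, the ratios were 1.21 for Nab2, 1.08 for Nr4a1, 1.10 for Egr1 and 1.27 for Egr3. Of the 8 genes 5 then passed the adjusted p, and Egr1 did not (adjusted p = 0.072).

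**Figure D4:**
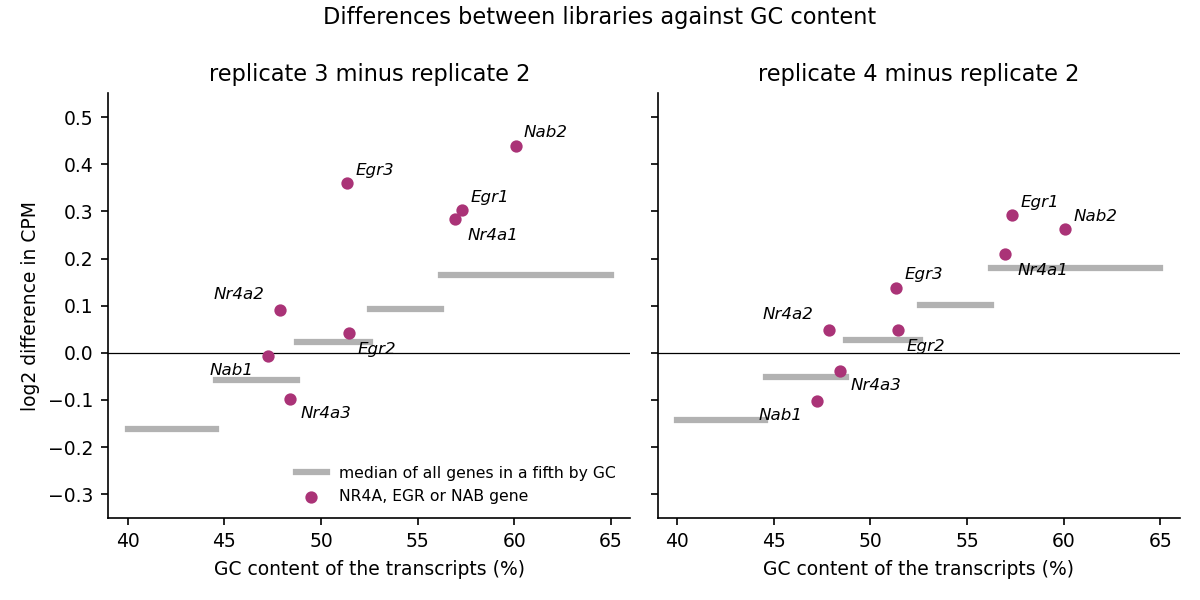
Log2 difference in CPM between libraries (vertical axis) against the GC content of the transcripts (horizontal axis, percent) for the 8 genes with 30 or more fragments. Grey bars are the medians of all genes tested in 5 equal bins by GC, with the outer bars ending at the edge of the plotted range. Nab2, Egr1 and Nr4a1 lie in the bin with the highest GC and above 0, and Egr3 lies 0.34 above its bin on the left.

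The other early response genes of T cell activation ranged from abundant to nearly absent transcripts, with most in between. Of 16 in the list used, 14 were detected, with a median of 38.3 TPM, and 5 were at 100 TPM or more. The highest were Ier2 (521.6 ± 39.2 TPM), Jund (510.0 ± 42.5) and Junb (502.9 ± 48.7), the last 2 encoding AP-1 subunits (SD, n = 3 each). The lowest were Fosb (0.372 ± 0.120), Fos (0.856 ± 0.456) and Fosl2 (12.2 ± 0.841). Fos, the classical partner of Jun in AP-1, measured 0.592, 0.593 and 1.38 TPM from 17, 20 and 95 fragments. It was the only gene of this list called between libraries, 1 of 16 tested (11.0% over all genes), with a ratio of 2.36 (adjusted p = 0.000115 by the chi-square test) and replicate 4 the highest. Nr4a1, Nr4a3 and the 3 detected EGR factors were thus measured in cells in which Fos and Fosb stood at or below 1.38 TPM.

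Of 15 regulators known upstream of NR4A and EGR genes, 14 were detected, with a median of 43.7 TPM, and none of the 15 was called (11.0% over all genes). Hdac7, a class IIa deacetylase that represses Nr4a1 through MEF2 in thymocytes, was the highest at 578.5 ± 67.9 TPM (SD, n = 3). Srf, which binds CArG boxes, followed at 149.0 ± 11.2 TPM, and its ternary complex partner Elk3 at 145.2 ± 4.89 TPM. The lowest were Mef2c (0.0442 ± 0.0132 TPM), Crem (9.42 ± 1.505) and Hdac4 (11.7 ± 0.692). Of the 5 partners of the proteins, Chd4 (424 ± 22.7 TPM) and Chd3 (134.9 ± 9.71), chromatin remodellers of the NuRD complex to which NAB proteins bind, were the highest. Among the retinoid X receptors, which pair with NR4A1 and NR4A2, Rxrb measured 105.5 ± 7.36 TPM and Rxra 98.7 ± 9.39, and Rxrg had no fragment in any library, where 3 fragments in the shallowest library would give 0.107 TPM. None of the 4 partners tested was called (11.0% over all genes).

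Of 16 genes linked to EGR2 and EGR3 in T cells, 14 were detected, with a median of 40.2 TPM, and none of the 15 tested was called (11.0% over all genes). The highest were Dgkz (292 ± 21.7 TPM), a diacylglycerol kinase that damps receptor signals, and the receptors Lag3 (204 ± 12.0) and Tnfrsf9 (182 ± 9.05) (SD, n = 3 each). Rnf128, the anergy ubiquitin ligase GRAIL, was the lowest at 0.106 ± 0.0218 TPM, below Crtam (1.25 ± 0.389) and Ndrg1 (4.82 ± 0.256). Of 12 genes linked to NR4A factors in T cells 9 were detected, with a median of 13.1 TPM. Il2ra (658 ± 23.3 TPM), Pdcd1 (400.1 ± 25.3) and Ctla4 (351 ± 37.5) were the highest. Havcr2, with 3 fragments in replicate 4 alone, Tox2 (11, 0 and 14 fragments) and Entpd1 (7, 6 and 48 fragments) were the lowest, all below 1 TPM in every library. Entpd1, the ectonucleotidase CD39, was the only one of the 10 tested that was called (11.0% over all genes), with a ratio of 3.85 (adjusted p = 0.000491 by the chi-square test) and replicate 4 the highest.

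**Figure D5:**
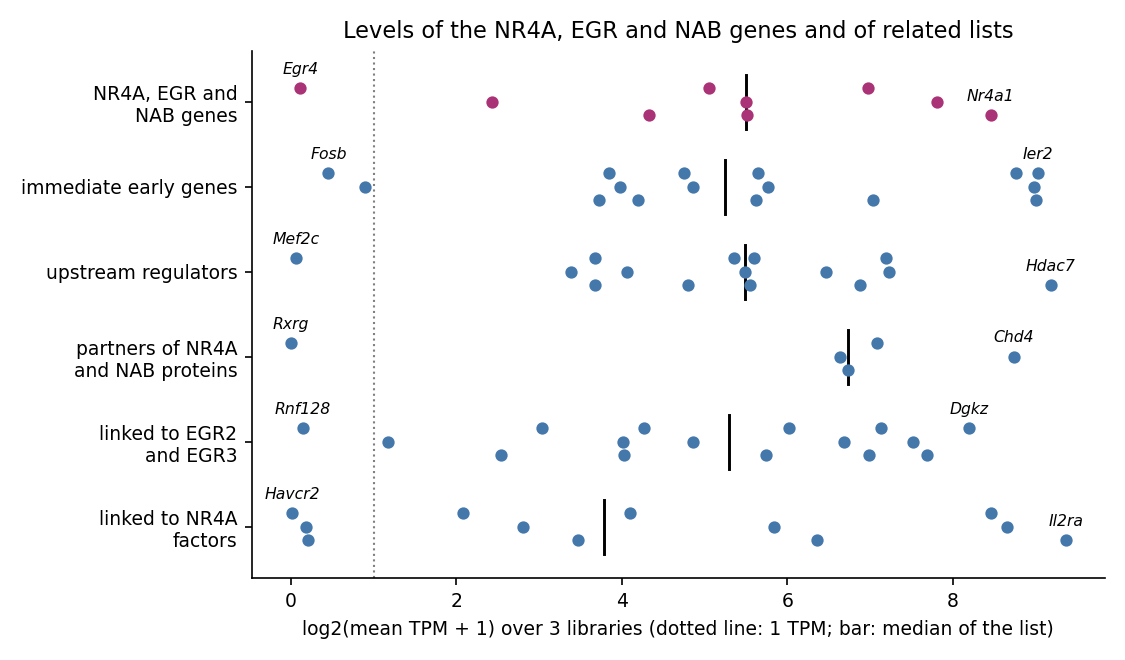
Log2 of the mean TPM + 1 over the 3 libraries for each gene, by list; the black bar is the median of the list, the dotted line is 1 TPM, and the lowest and highest gene of each list are named. Each list holds genes on both sides of 1 TPM, from Rxrg with no fragment to Il2ra at 658 TPM.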

How the data were processed

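The authors deposited unnormalized counts of fragments per gene, made per the file headers with featureCounts 1.4.6-p4 on paired-end alignments with strand option 2 over exons of GENCODE M13; the build is mm10 per the labels. The sources used here do not give the aligner's settings. The header command names no option for fragments that fit several places or genes. The labels call the assay total RNA sequencing, while the linked library protocol is named for polyadenylated RNA.

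TPM was computed as count over exon length. With coding lengths the same count, from all exons, was divided by coding bases alone. Symbols were matched by unversioned identifier to GENCODE M21 (50376 of 50600 genes). In the comparisons between libraries, also those by GC content, CPM used TMM sizes from edgeR 4.0.16 (R 4.3.3). For pairs of genes CPM used the library totals alone. With 1 group, edgeR's quasi-likelihood test has no contrast, so libraries were compared by the chi-square test given above, and 3 fragments stood in for a library without any. Pairs used log2(TPM + 1). The same comparison of coding sequence for the EGR genes is not reported here. Promoters and GC content came from RefSeq and GENCODE M21 tables. All 9 genes are described. Of each related list the 3 highest, the 3 lowest and any called gene are named, and so are the 2 nearest genes of the 3 highest members. The genes and lists were chosen with earlier results of these data known. Alternatives were other scalings, filters, lengths and pseudocounts, DESeq2 1.42.0 size factors, and leaving out each library. The library comparison was tested on simulated counts of 3 libraries, drawn with counting error only (13679 genes tested). It called 97 of 100 genes changed 2.5-fold in 1 library, 99 of 100 changed 4-fold and 1 of 13479 unchanged genes. The deposited libraries varied beyond counting error, so these figures do not give the share of false calls in them. Other steps used scipy 1.17.1, pandas 2.3.3 and numpy 2.4.6 in Python 3.11.15.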

Additional observations from a re-analysis of the deposited data

How the results depend on the processing

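Of 169 alternative values, 19 moved (levels and shares by 1 SD or more, counts by over 1.5 times) and 4 changed sign. For pairs of genes only the sign was followed, and their size moved with the setting. The signs that turned were Nr4a1 minus Nr4a3 (log2 0.64 with exon lengths, -0.63 in CPM, -0.57 with coding lengths) and Egr1 minus Egr3 (-0.73, 0.85 and 0.43), since only the length divided by was changed; the other 8 pairs kept their sign under every pseudocount, length and left-out library tried. With coding lengths for these genes alone, added after the data were seen, the summed levels were 1201 TPM for NR4A, 199 for EGR and 357.9 for NAB, larger by construction, and over protein-coding genes only the NR4A sum was 604.6 TPM. The calls between libraries numbered 9647 by adjusted p alone (6 of them members, against 0), 2355 with a minimum of 10 fragments and 2821 with no filter, against 1505. Between the 2 libraries that remained without replicate 2, 3 or 4 they numbered 777, 523 and 528, with fewer samples; no member was called in any of these except by adjusted p alone. Of the 9 genes, 7 reached 5 TPM in every library and 8 reached 1 TPM without each library. Lengths from RefSeq proteins were not run, as no protein table was used here. No paired analysis was possible because all libraries form 1 group. Depth limits Egr4: its 9 fragments were below the filter, and with no filter it did not pass (adjusted p = 0.315 by the chi-square test).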
